A study of Homo sapiens with 5 samples.

Results

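IRF3 peak lists of control and caSmad3 BT549 cells were compared across the whole genome. The members were all peaks of both anti-IRF3 lists, 4125 in control (HA) cells and 8067 in caSmad3 cells, together 12192 of the 19372 peaks of the series. A peak was called shared when at least 1 base of it lay under a peak of the other list. BT549 is an established basal-like breast cancer line, and both stable lines were made with lentiviral vectors, one carrying HA as the control and the other carrying constitutively active Smad3 (caSmad3). Both were transfected with polyI:C, a synthetic double-stranded RNA, and neither received TGF-beta. Every IRF3 value here is from polyI:C-transfected cells, and IRF3 in unstimulated cells was not analysed here. The other 3 libraries were of Smad3. They came from HA cells treated for 1.5 h with 1 ng/ml TGF-beta, either mock transfected or polyI:C transfected, and from caSmad3 cells with polyI:C and no added TGF-beta. Each group held 1 library, so no difference between the cells was tested. Every 95% Clopper-Pearson interval below, printed as a range after a share, covers counting error only.

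IRF3 is held inactive in the cytoplasm until sensors of viral RNA or DNA cause TBK1 to phosphorylate it. It then enters the nucleus, pairs, and binds GAAA repeats known as the interferon-stimulated response element (ISRE) at genes such as IFNB1 and the IFIT family. At IFNB1 it acts beside NF-kB and AP-1. Smad3 carries the signal of TGF-beta receptors to genes of matrix and migration such as CCN2, and it often binds beside AP-1 and TEAD factors.

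The peak lists differed at promoters of contrasting makeup, which are shown before the values. The first set gives the 250 bases before a start site, 5′ to 3′ on the gene's strand, from the RefSeq promoter table (GRCh38.p14, the assembly of hg38). IFNB1, IFIT1, IFIH1 and the downstream start of WARS1 were touched by IRF3 peaks of HA cells alone. The upstream start of WARS1, ISG15 and CXCL1 were touched in both cells, and CCN2 in caSmad3 cells alone. Capitals mark AAANNGAAA (the ISRE core without its first base, here called the short IRF pattern and chosen after the values were seen) in IFNB1, IFIT1, IFIH1, WARS1 and ISG15. In CXCL1 they mark the NF-kB motif (GGG, any 2 bases, then TTTCC), and in CCN2 the TEAD motif GGAATG. All motifs were searched on both strands. A match is a description of the letters and not a measured binding site.
IFNB1, chr9:21077943-21078192, minus strand: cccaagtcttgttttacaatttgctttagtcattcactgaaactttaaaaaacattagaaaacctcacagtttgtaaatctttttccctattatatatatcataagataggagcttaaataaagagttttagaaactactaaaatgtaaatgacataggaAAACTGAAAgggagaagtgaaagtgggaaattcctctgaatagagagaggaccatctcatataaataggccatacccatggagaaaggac
IFIT1, chr10:89392373-89392622, plus strand: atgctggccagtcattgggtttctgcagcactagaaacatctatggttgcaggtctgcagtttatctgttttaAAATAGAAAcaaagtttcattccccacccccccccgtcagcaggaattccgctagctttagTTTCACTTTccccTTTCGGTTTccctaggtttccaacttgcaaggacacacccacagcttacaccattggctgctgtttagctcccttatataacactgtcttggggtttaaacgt
IFIH1, chr2:162318685-162318934, minus strand: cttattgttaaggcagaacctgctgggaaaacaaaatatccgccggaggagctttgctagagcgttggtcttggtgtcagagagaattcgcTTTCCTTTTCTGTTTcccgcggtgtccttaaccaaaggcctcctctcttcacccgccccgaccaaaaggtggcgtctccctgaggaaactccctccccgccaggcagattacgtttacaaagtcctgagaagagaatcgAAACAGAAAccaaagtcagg
WARS1, downstream start, chr14:100375348-100375597, minus strand: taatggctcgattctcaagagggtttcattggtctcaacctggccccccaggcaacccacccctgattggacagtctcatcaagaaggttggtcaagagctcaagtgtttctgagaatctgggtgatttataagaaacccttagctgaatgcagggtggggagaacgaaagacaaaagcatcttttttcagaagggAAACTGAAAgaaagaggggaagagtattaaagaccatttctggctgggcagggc
WARS1, upstream start, chr14:100376328-100376577, minus strand: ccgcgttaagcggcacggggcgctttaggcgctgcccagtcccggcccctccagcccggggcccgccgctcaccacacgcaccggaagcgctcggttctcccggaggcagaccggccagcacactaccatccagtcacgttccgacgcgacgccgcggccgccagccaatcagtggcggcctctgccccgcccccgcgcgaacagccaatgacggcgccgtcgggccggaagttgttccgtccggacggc
ISG15, chr1:1013247-1013496, plus strand: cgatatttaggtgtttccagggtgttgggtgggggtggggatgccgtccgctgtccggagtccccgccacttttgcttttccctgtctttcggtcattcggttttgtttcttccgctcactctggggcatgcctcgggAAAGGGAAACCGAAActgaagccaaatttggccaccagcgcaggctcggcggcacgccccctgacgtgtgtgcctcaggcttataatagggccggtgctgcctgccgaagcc
CXCL1, chr4:73869143-73869392, plus strand: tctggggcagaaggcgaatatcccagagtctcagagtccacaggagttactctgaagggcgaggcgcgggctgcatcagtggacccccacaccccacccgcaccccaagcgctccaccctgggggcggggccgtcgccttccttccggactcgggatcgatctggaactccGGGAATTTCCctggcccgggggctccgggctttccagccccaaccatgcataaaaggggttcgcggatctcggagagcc
CCN2, chr6:131951373-131951622, minus strand: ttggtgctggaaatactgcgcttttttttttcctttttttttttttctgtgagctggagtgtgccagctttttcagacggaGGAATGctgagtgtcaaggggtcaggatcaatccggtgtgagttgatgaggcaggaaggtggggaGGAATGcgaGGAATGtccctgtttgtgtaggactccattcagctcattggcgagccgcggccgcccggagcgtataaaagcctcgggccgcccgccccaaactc

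The second set gives ISRE cores (GAAA, any 2 bases, then GAAA, in capitals) with 10 bases on each side, on the strand that reads GAAA, in promoters touched by HA-only IRF3 peaks. They are shown because this motif set the HA-only promoters apart from the other classes. The coordinates are those of the capitals. DTX3L and PARP9 start from 1 shared promoter region in opposite directions. The core lay inside the HA-only peak in each of these genes except CD274, where it lay 181 bases from the centre of a 154-base peak.
IFIT3, chr10:89327875-89327884, minus strand: gaggaaactgGAAAGTGAAActaatttaaa
IFIT5, chr10:89414523-89414532, minus strand: gtaagcttcaGAAACCGAAActtaatagaa
IFI6, chr1:27672298-27672307, minus strand: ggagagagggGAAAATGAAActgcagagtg
DDX60L, chr4:168480533-168480542, minus strand: gtggagaaaaGAAACCGAAActaactccct
HERC5, chr4:88457045-88457054, minus strand: agctccagtgGAAAACGAAAcataatgttt
DTX3L and PARP9, chr3:122564332-122564341, plus strand: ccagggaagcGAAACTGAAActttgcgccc
ISG20, chr15:88638947-88638956, plus strand: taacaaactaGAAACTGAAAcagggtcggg
MX1, chr21:41420569-41420578, plus strand: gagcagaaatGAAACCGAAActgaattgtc
PARP14, chr3:122680810-122680819, plus strand: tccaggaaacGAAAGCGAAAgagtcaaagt
IFITM3, chr11:320886-320895, minus strand: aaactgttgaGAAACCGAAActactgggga
RIPK1, chr6:3068311-3068320, minus strand: cgtaaaagagGAAACCGAAAcctccgcgcg
CD274, chr9:5450340-5450349, minus strand: gtatagaaatGAAACAGAAAgtgaaacatg

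ISRE cores were held by 17.3% of the 197 promoters touched by HA-only peaks alone (34 promoters, 12.3 to 23.3). Some promoters, such as those of DTX3L and PARP9, overlapped under the same peak and were not independent counts, which the interval does not allow for. The share was 2.81% of 2958 promoters under shared peaks (2.24 to 3.47), 1.95% of 2967 under caSmad3-only peaks (1.49 to 2.52) and 3.57% of all 34796 distinct promoters. The longer form, in which the core is followed by any 2 bases and a G, was found in 9.14%, 0.845% and 0.741% of these 3 classes and in 0.989% of all promoters. Only the HA-only class was above the level of all promoters for these letters. Restricted to peaks wider than the median of their list, 22 of 53 HA-only promoters held the core (41.5%), against 2.80% of shared and 1.85% of caSmad3-only ones.

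Most cores of HA-only promoters lay under the peaks, and so did most of those of shared promoters. In 25 of the 197 promoters (12.7%, 8.38 to 18.2) a core lay inside the HA-only peak, and 33 of the 45 distinct matches were inside, a median of 52 bases from the peak's centre. A core lay inside the peak in 57 of 2958 shared promoters (1.93%) and in 20 of 2967 caSmad3-only ones (0.674%). The matches inside were 73.3% in HA-only, 68.4% in shared and 34% in caSmad3-only promoters. Members of 3 interferon-linked lists (direct IRF3 targets, interferon-stimulated genes and class I presentation) supplied 16 of the 30 HA-only genes with a core in the promoter. They included IFIH1, the MDA5 sensor of long double-stranded RNA; HERC5, the ligase that attaches ISG15 to proteins; MX1, a GTPase that blocks influenza virus; OAS3, a synthetase of the signal for RNase L, whose cores lay outside its peak; and IFNL1, a type III interferon.

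The other 14 genes stood outside these lists. WARS1, the tryptophanyl-tRNA synthetase, had a 697-base HA-only peak at its downstream start. IFITM3, which restricts virus entry, had a 216-base peak with 2 cores inside it. RIPK1, a kinase of death-receptor and RNA-sensor signalling, had a core 20 bases from the centre of a 300-base peak. CD274, which encodes the checkpoint ligand PD-L1, had the 154-base peak described above. TASOR2, whose paralogue is a subunit of the HUSH silencing complex, had a core 10 bases from the centre of a 118-base peak. GCA, CWF19L1, HIP1R, HAX1, COMMD4, MBD4, ARMC9, TEP1 and LOC102723458 completed the 14. In CD274, CWF19L1, HAX1, COMMD4, MBD4, ARMC9 and TEP1 the core lay outside the peak. GCA shares its region with IFIH1 and LOC102723458 with HERC5, so that 1 peak counted for 2 genes there. At IFNB1 the promoter did not hold the whole core, and it held the short IRF pattern once, as printed. That pattern was in 20.3% of HA-only, 6.36% of shared, 5.06% of caSmad3-only and 10.5% of all promoters.

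WARS1 carried both kinds of site in 1 gene. Its upstream start had a 214-base peak in HA cells and a 293-base peak in caSmad3 cells, and its sequence, printed above, held no short IRF pattern. Its downstream start had the 697-base peak at chr14:100375197-100375893 in HA cells, which held an ISRE core, and no peak in caSmad3 cells. A 162-base peak beyond the upstream start was in the caSmad3 list alone. WARS1 was one of 20 cytosolic tRNA synthetases in the gene lists, and 10 of them had peaks in both cells and 7 in caSmad3 cells alone.

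Promoters under shared and caSmad3-only peaks had similar shares of several other motifs. The ETS motif CCGGAAG, found at many constitutive promoters, was in 27.8% of shared, 26.9% of caSmad3-only, 18.8% of HA-only (13.6 to 24.9) and 10.2% of all promoters. Among HA-only promoters under the wider peaks the ETS share was 7.55%. The palindrome of NRF1, a factor of nuclear genes for mitochondria, was in 4.16%, 4.01% and 4.06% of shared, caSmad3-only and HA-only promoters against 1.23% of all. The cyclic AMP response element TGACGTCA was in 5.48%, 4.28% and 3.05% against 1.84%. The NF-kB motif was in 6.09% of HA-only promoters (3.19 to 10.4), 2.81% of shared, 2.02% of caSmad3-only and 1.91% of all. Of the 3 classes, caSmad3-only promoters were the richest in the GC Smad motif GGCGCC, with 34.3% (32.6 to 36.1) against 28.9% in shared, 23.4% in HA-only (17.6 to 29.9) and 19.2% in all promoters. They also had the highest median GC content, 66% against 64.5%, 62.3% and 58.7%. The part of GC content in the GGCGCC share was not tested.

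The other Smad and partner motifs were close to or below the share of all promoters. CAGACA, the Smad box, was in 11.3% of caSmad3-only, 10.6% of shared and 11.7% of HA-only promoters (7.55 to 17.0) against 16.9% of all promoters. The palindrome GTCTAGAC was in 0.202% of caSmad3-only promoters against 0.193%. TGANTCA, the AP-1 motif, was in 3.34% of caSmad3-only, 2.87% of shared and 5.58% of HA-only promoters (2.82 to 9.77) against 7.73%. The TEAD motif was in 9.10%, 9.63% and 12.2% (7.96 to 17.6) against 14.0%. Low shares of CAGACA, AP-1 and TEAD motifs were thus not particular to the caSmad3-only class. CCN2 held 3 TEAD motifs in the sequence printed above. The E-box CACGTG was in 10.8% of caSmad3-only, 10.6% of shared and 15.7% of HA-only promoters (10.9 to 21.6) against 7.20%.

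**Figure D1:**
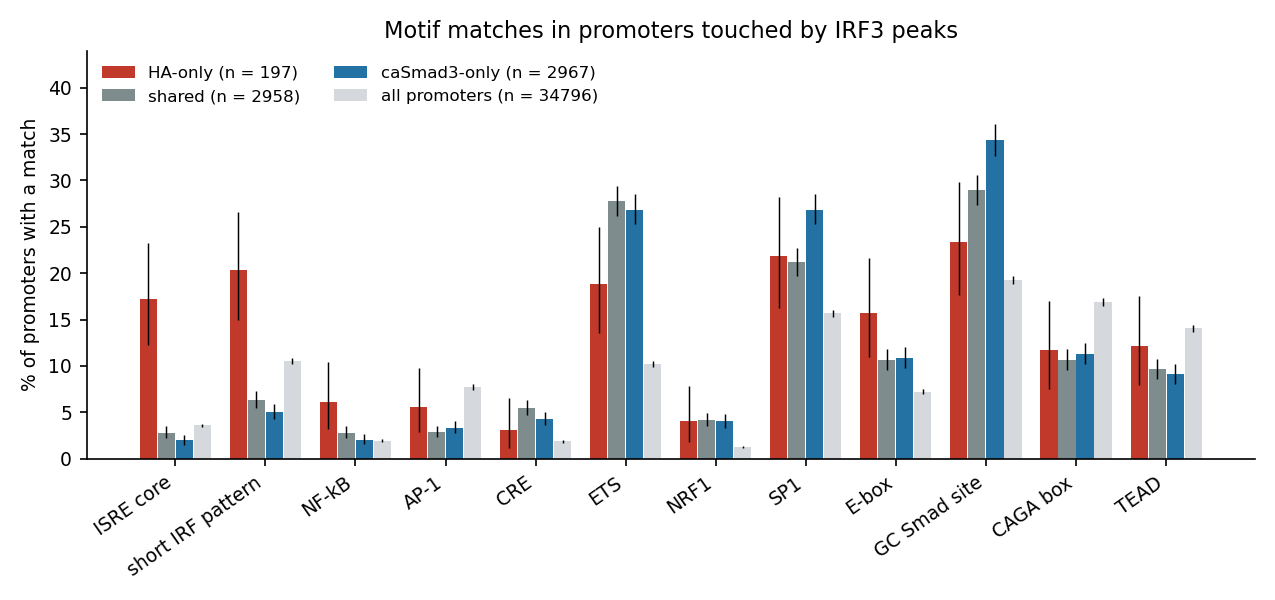
Share of promoters (300 bases, 250 before to 50 after a start site) with a match to each motif, for promoters touched by 1 class of IRF3 peak and for all promoters of the table. Bars are shares and lines are 95% Clopper-Pearson intervals. The ISRE core stands at 17.3% in the HA-only class and below 4% in the others, while ETS and NRF1 shares lie closer together in the 3 peak classes and above that of all promoters.

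Genome-wide, most HA peaks had at least 1 base in common with a peak of the longer caSmad3 list. Such peaks made up 82.8% of the HA list and 40.9% of the caSmad3 list (49.1% and 25.1% when 50% of both peaks had to overlap), leaving 710 HA-only and 4770 caSmad3-only peaks. Of the HA-only peaks, 111 (15.6%) had a caSmad3 peak within 200 bases, 172 (24.2%) had one within 1000 bases, and 284 (40%) had none within 100 kb. Of the caSmad3-only peaks, 302 (6.33%) had an HA peak within 200 bases. Sharing rose with width in both lists. From the narrowest class (99 to 124 bases) to the widest (300 bases or more), the share found in the other list went from 70.4% to 92.9% for HA peaks and from 10.9% to 77.0% for caSmad3 peaks. When the caSmad3 list was shortened to its 4125 widest peaks, 68.0% of HA peaks were shared.

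HA-only peaks lay at other places than the rest. Of them, 45.4% (41.6 to 49.1) were centred at most 1 kb from either end (start or finish) of a protein-coding gene. The share was 81.4% of shared HA peaks (80.1 to 82.7) and 73.7% of caSmad3-only peaks (72.4 to 75.0). Deep inside a gene, over 10 kb from both ends, lay 17.5% of HA-only peaks (14.7 to 20.5), 3.66% of shared and 5.93% of caSmad3-only peaks. Over 10 kb outside any protein-coding gene lay 22.8%, 7.06% and 9.96%. Width went the opposite way in the 2 unshared classes. From the narrowest to the widest class the deep share of HA-only peaks rose from 13.4% to 26.5%, and that of caSmad3-only peaks fell from 8.58% to 3.61%. The share at gene ends fell from 48.8% to 33.8% for HA-only and rose from 66.3% to 82.1% for caSmad3-only peaks.

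**Figure D2:**
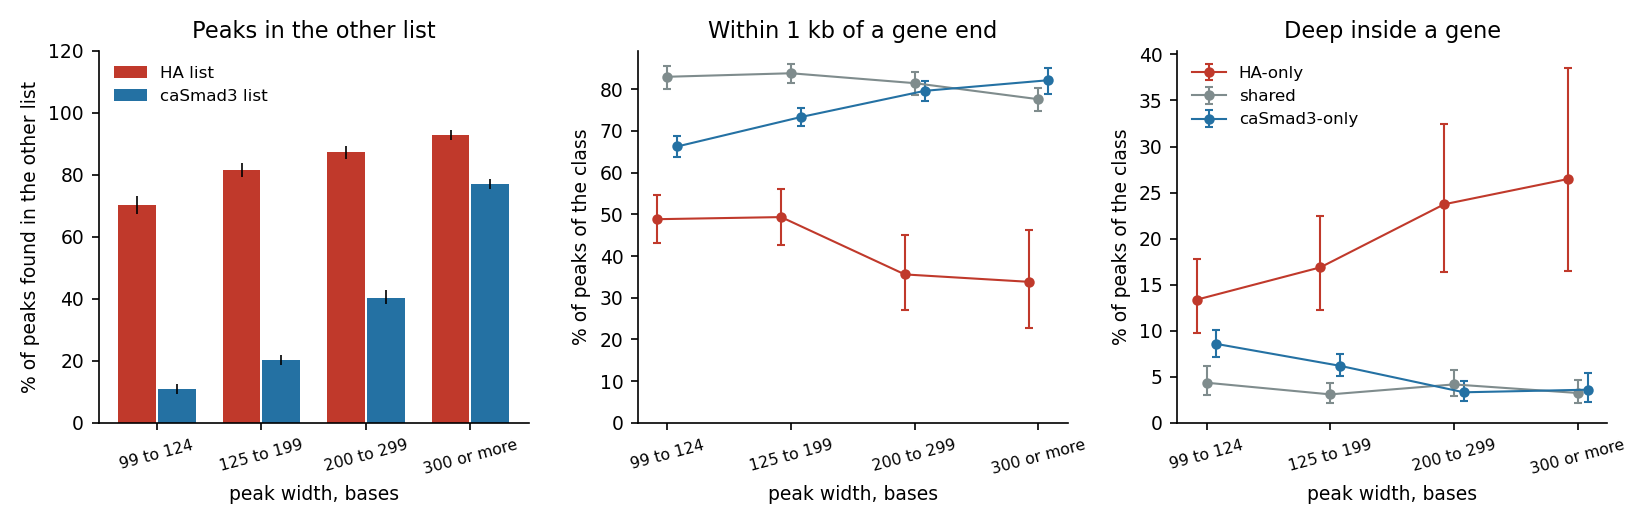
Left, share of peaks of each IRF3 list found in the other list, by peak width in bases. Middle and right, share of HA-only, shared (HA list) and caSmad3-only peaks at gene ends and deep inside genes, by width. Lines are 95% Clopper-Pearson intervals. The widest HA-only peaks lie deep inside genes in 26.5% of cases, and the widest caSmad3-only peaks in 3.61%.

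Around start sites the 3 classes were centred alike, and HA-only peaks reached further into genes. No start sites were in the table for chromosome 8, and 4191 of 20033 protein-coding genes in all had none. Peaks at such genes elsewhere could count as away from a start, here and below. Within 1 kb of a start lay 79.2% of HA-only (74.4 to 83.6), 87.1% of shared and 86.6% of caSmad3-only gene-end peaks outside chromosome 8. Median positions of these were 26, 19 and 15 bases downstream of the start. More than 250 bases downstream lay 12.7% of these HA-only peaks, 3.32% of the shared and 5.57% of the caSmad3-only ones. The downstream set included peaks in ISG15, 905 bases into the gene, and in IFNB1, 297 and 581 bases into it.

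**Figure D3:**
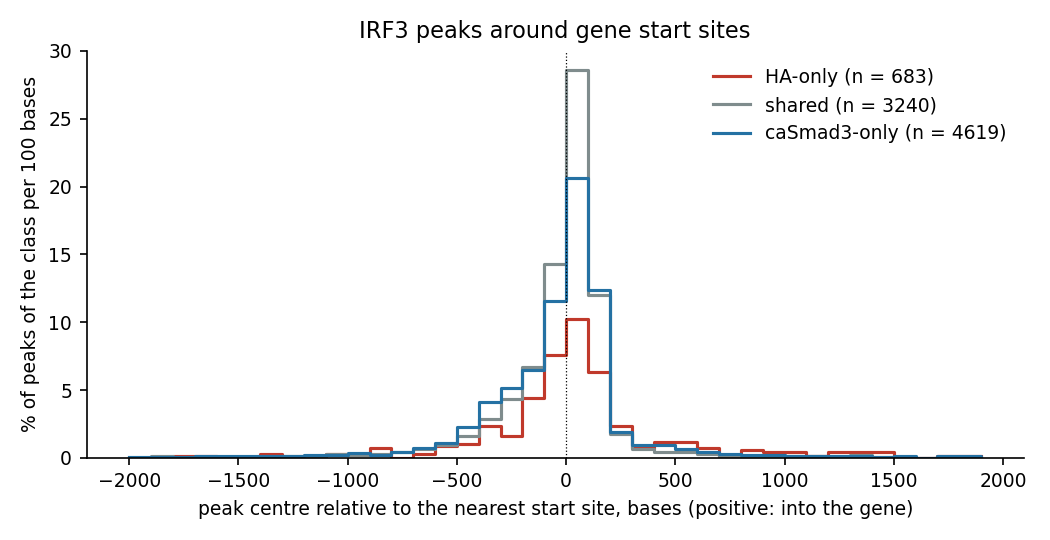
Distance in bases from each IRF3 peak's centre to the nearest protein-coding start site in the promoter table, positive into the gene. Lines give the share of each class per 100 bases (shared peaks from the HA list, all peaks outside chromosome 8). All 3 classes peak in the 100 bases after the start, and the HA-only line is the lowest there.

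Deep peaks of the 2 unshared classes differed in what lay under them. Of deep peaks outside chromosome 8, 21 of 110 HA-only (19.1%, 12.2 to 27.7), 136 of 266 caSmad3-only (51.1%, 44.9 to 57.3) and 78 of 113 shared (69.0%, 59.6 to 77.4) were within 1 kb of an annotated internal start site. Of the 8 widest caSmad3-only deep peaks, 5 lay at such starts, 1 did not, and 2 were on chromosome 8. OTUD7B, a deubiquitinase that restrains NF-kB, had a 533-base peak 18 bases before an internal start. LZTFL1, a regulator of BBSome traffic to cilia, had one of 470 bases 177 bases before a start, and SMTN, the smooth muscle actin-binding protein smoothelin, one of 446 bases 21 bases after a start. KANK1, a protein of the cell cortex, had one of 479 bases that lay 2611 bases from the nearest start.

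The widest HA-only deep peaks were far from any protein-coding start in the promoter table. ARHGAP26, a GTPase-activating protein, had a 525-base peak at chr5:142950745-142951269, 179780 bases downstream of the nearest start. FNDC3A had one of 505 bases at chr13:49044819-49045323, 65246 bases before the nearest start. DMD, the dystrophin gene, had a 442-base peak at chrX:32452127-32452568, 40119 bases before one. NR6A1 (a nuclear receptor, 442 bases), SLC71A1 (425), OSBPL10 (an oxysterol-binding protein, 417), KDM6A (a histone H3 lysine demethylase, 397) and GIGYF2 (a translational repressor, 391) followed. Their distances from a start ran from 27436 bases at SLC71A1 to 196859 at OSBPL10. The 124 HA-only deep peaks lay in 114 genes, 7 of which had more than 1. KIF13B, a kinesin, had 4, SOD2, the mitochondrial superoxide dismutase, had 3, and NFKBIZ, an atypical IkB protein that acts in the nucleus, LPP, a focal adhesion protein, DICER1, DPYD and FAF1 had 2 each. Genome sequence was not used here, so the letters under deep peaks were not searched.

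Far from genes, the widest HA-only peaks lay nearest to BAMBI (435 bases wide, 47688 bases away), KLF4 (424, 336725 away), SULF1 (417, 169186 away), IRF1 (381, 17210 away) and EPHA4 (377, 572053 away). Nearness does not assign a peak to a gene. IRF1 is itself an interferon-induced member of the IRF family. It also had a shared peak at its start, 296 bases wide in HA cells against 173 in caSmad3 cells. Wide caSmad3-only far peaks lay nearest to GNA13 (490 bases), SPAG6 (464), NPTX1 (450) and NEK3 (402).

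By gene, IRF3 peaks touched 3793 of 20033 protein-coding genes in HA cells (18.9%) and 6878 in caSmad3 cells (34.3%), counting each gene's span and 1 kb on both sides. In HA cells alone were 269 genes (1.34% of all genes), in caSmad3 cells alone 3354 (16.7%), and in both 3524 (17.6%). Of the genes touched in both, 115 had no shared peak. Of the 269, 33 belonged to the 3 interferon-linked lists, which hold 90 genes, and 236 did not. These counts moved with list length: against the 4125 widest caSmad3 peaks, 855 genes were touched in HA cells alone and 1356 in caSmad3 cells alone.

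Several peaks on 1 gene marked a short set of names. In HA cells 12 genes had 3 or more HA-only peaks. IFIT2, an antiviral protein that binds RNA, and IFIT3 had 8 each, IFNB1 had 5, IFIT1, KIF13B and NFKBIZ had 4, and CXCL2, EGR1, ISG15, LPP and SOD2 had 3. LIPA, a lysosomal lipase, had 23, but its annotated span from 89213572 to 89414679 on chromosome 10 runs across the IFIT genes, so these include the IFIT peaks. In caSmad3 cells 98 genes had 3 or more caSmad3-only peaks. CCN2 had 6, and BCAR3 (an adaptor for p130Cas), FLRT2 (an adhesion protein), GATA3 (a luminal transcription factor), GPHN (gephyrin, which also had 5 shared HA peaks), HUWE1 (a ubiquitin ligase), INTS5 (an Integrator subunit) and LOC101929937 had 4 each.

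In a few genes the peaks covered much of the transcribed span. Among 18778 genes of 2000 bases or more, HA peaks covered at least 30% of the span of 7 and caSmad3 peaks that of 5, with 4 in common. The 4 were CCN1 (50.4% in HA and 71.7% in caSmad3 cells), JUN (46.6% and 53.9%), and the histone genes H2BC21 (39.3% and 39.6%) and H3C4 (37.1% and 53.7%). IFIT2 was covered to 58.5% in HA cells and to 0% in caSmad3 cells. Its 8 peaks ran from a 1182-base one over one end to a 2071-base one over the other, at chr10:89307997-89310067. CCN2, a secreted matrix protein and TGF-beta and YAP/TAZ target, was the reverse, with 0% in HA and 74.4% in caSmad3 cells. CXCL2, a neutrophil chemokine, went from 69.6% in HA to 14.3% in caSmad3 cells, and ZFP36, which destabilises cytokine mRNAs, from 50.3% to 7.42%. Among shorter genes, CXCL1 went from 96.2% to 22.9% and ISG15 from 57.4% to 8.72%. The genes of this paragraph were chosen by their coverage after it was seen.

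At IFNB1, 5 HA-only peaks lay between chr9:21076024 and chr9:21078119. Their widths in HA cells were 263, 334, 156, 287 and 195 bases, and the caSmad3 list held none in the gene's span or within 1 kb of it. The 195-base peak lay over the promoter printed above, 80 bases before the start. The others ran through the gene and past its 3′ end. IFNB1 is intronless and 839 bases long. CCL5, a chemokine, had 1 peak of 762 bases in HA cells and no caSmad3 peak. Neither list touched CXCL10, an interferon-induced chemokine, and neither touched the genes of the inhibitory SMAD7 or of SMAD3. IRF3's own gene had a shared peak (238 bases in HA and 576 in caSmad3 cells) and a 118-base caSmad3-only one.

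Shared peaks were mostly wider in caSmad3 cells, and those at interferon genes were not. Of 2964 peaks paired one to one, 2464 (83.1%) were wider in caSmad3 cells and 478 (16.1%, 14.8 to 17.5) in HA cells, with a median ratio of 1.44 (quartiles 1.09 and 2.04). At the 3 interferon-linked lists, 8 of 10 pairs were wider in HA cells (80%, 44.4 to 97.5). Widths in HA and caSmad3 cells were 750 and 309 bases at ISG15, a ubiquitin-like protein, and 582 and 481 at B2M, the light chain of class I molecules. At DDX60, a helicase, they were 654 and 149. At NF-kB list genes, 7 of 15 pairs were wider in HA cells (46.7%, 21.3 to 73.4), with CXCL1 at 1313 and 517 bases, CXCL2 at 595 and 204, and NFKBIA, the inhibitor that holds NF-kB in the cytoplasm, at 408 and 264. The other 8 were wider in caSmad3 cells, among them IER3 (111 and 490) and RELA, an NF-kB subunit (106 and 259), and the median ratio of the 15 was 1.17 toward caSmad3 cells.

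The opposite extreme held genes of general cell function. TMA16 had 103 bases in HA and 752 in caSmad3 cells (7.30 times), PRPF8, the core spliceosome protein, had 108 and 692, and NCBP2, of the nuclear cap-binding complex, had 119 and 755. These names are those of the nearest gene. At the other extreme, a site centred 2368 bases outside ZC3HAV1 had 599 and 107 bases (5.60 times wider in HA cells). ZC3HAV1 is the gene of the antiviral zinc-finger protein ZAP, and a 589-base HA-only peak lay over its start. None of the 5 pairs at genes of the RNA and DNA sensing pathway was wider in HA cells. Their median ratio was 2.42.

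**Figure D4:**
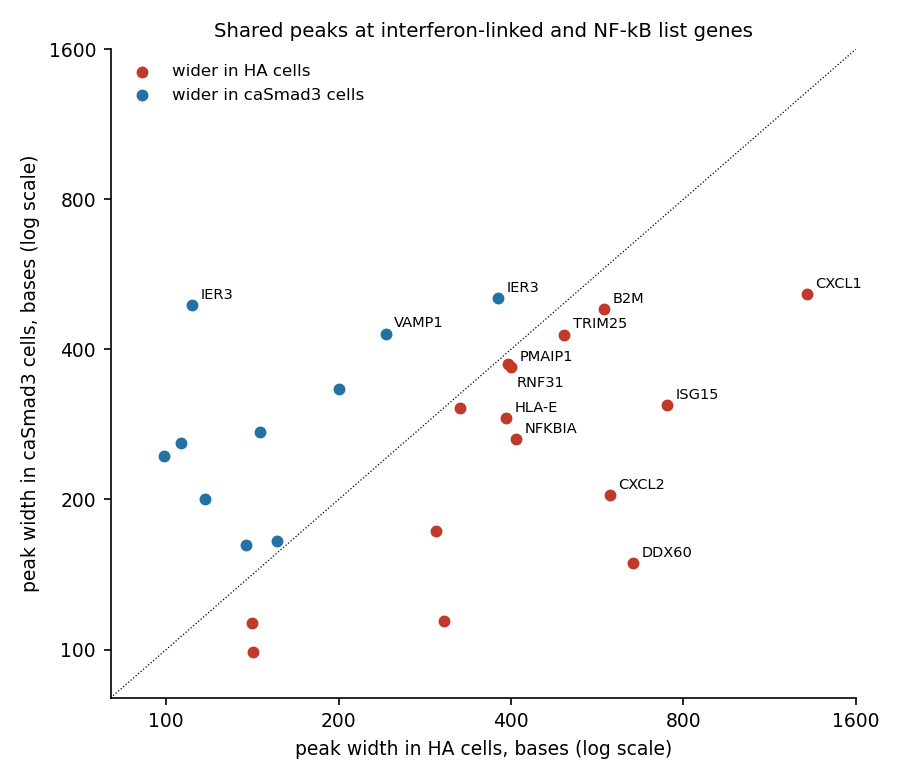
Width in bases (log scales) of shared IRF3 peaks paired one to one at interferon-linked and NF-kB list genes, HA cells against caSmad3 cells; each point is a peak pair, labelled by its nearest gene where wide, and the dotted line marks equal widths. CXCL1, ISG15, DDX60 and CXCL2 lie furthest below the line, on the side wider in HA cells.

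Across 43 gene lists with 3020 genes, 4 had more members in HA cells alone than in caSmad3 cells alone, 36 had fewer, and 3 had equal numbers. The 4 were the direct IRF3 targets (12 and 0 of 20), interferon-stimulated genes (15 and 2 of 52), class I presentation (6 and 2 of 18) and NF-kB genes (5 and 3 of 29). In 21 lists no member was in HA cells alone. With the caSmad3 list shortened to its 4125 widest peaks, 12 lists had more members in HA cells alone, 8 of them lists that had fewer with the whole list. The lists were chosen with earlier results of these data known, so these counts are no independent evidence.

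Among interferon-stimulated genes, RIGI, the RNA sensor RIG-I, had its widest peak at 618 bases in HA cells, IFI6 at 511, DDX60L at 503 and HERC6 at 434, all in HA cells alone. SOCS1 (208 bases) and SOCS3 (184), which restrain JAK-STAT signalling, were in caSmad3 cells alone, and SOCS1 was the 1 interferon-list gene with an ISRE core under a caSmad3-only peak. In class I presentation, TAP2 (221), TAP1 (209) and PSMB9 (209) were in HA cells alone. TAP1 and PSMB9 are divergent neighbours. TAPBP, the tapasin gene (414), and PSMB10 (229) were in caSmad3 cells alone. Of NF-kB list genes, the chemokines CXCL8 (320) and CCL2 (228), the adhesion molecule ICAM1 (170) and the cytokine IL6 (124) were in HA cells alone. PTGS2 (205), NFKBIB (191) and NFKB1 (163) were in caSmad3 cells alone.

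Of 21 genes of the RNA and DNA sensing pathway, 1 was in HA cells alone (TICAM1, the TLR3 adaptor TRIF, at 99 bases), 6 in both and 3 in caSmad3 cells alone. The last were AZI2 (676 bases) and TANK (162), adaptors of the kinase TBK1, and TBK1 itself (151). The sensor gene RIGI, in HA cells alone with a peak of 618 bases, was counted with the interferon-stimulated genes and not among these 21. IFIH1, with its HA-only promoter peak, stood in the interferon-linked lists. Across all genes the shares were 1.34% in HA cells alone, 17.6% in both and 16.7% in caSmad3 cells alone, so 3 of 21 (14.3%) was near the share of all genes. With the shortened caSmad3 list 2 of the 21 were in HA cells alone and 1 in caSmad3 cells alone.

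Genes of TGF-beta signalling and matrix had more members in caSmad3 cells alone than in HA cells alone, as all genes did (3354 against 269). Of 44 Smad target genes, 1 was in HA cells alone (CDKN1A, the p21 gene, 101 bases), 11 in both and 11 in caSmad3 cells alone (25%, against 16.7% of all genes). Besides CCN2 (1203 bases at its widest), the latter included PMEPA1, a feedback inhibitor of TGF-beta signalling (407), ANGPTL4 (389) and SNAI2, the mesenchymal factor Slug (306). ID1 (462 bases in HA and 694 in caSmad3 cells) and ID3 (470 and 681), which block basic helix-loop-helix factors, were in both. Of 25 receptors and signalling proteins, 2 were in HA cells alone (SMURF1 and BMPR2, at 116 and 99 bases), 4 in both and 7 in caSmad3 cells alone, with SMAD4, the common partner of Smad3, at 353 bases. The HA-alone share of that list was 8%, against 1.34% of all genes, and with the shortened caSmad3 list its counts were 2 and 2. Of 47 matrix genes, 2 were in HA cells alone and 10 in caSmad3 cells alone (21.3%), among them LOXL1 (376), LAMC1 (339) and FN1, fibronectin (316). Among genes with a caSmad3 peak, caSmad3 cells alone held 11 of 22 Smad targets, near the 3354 of 6878 of all genes. The counts were 7 of 11 for receptors and signalling proteins and 10 of 16 for matrix genes.

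The Hippo list had 9 of 26 genes in caSmad3 cells alone (34.6%, against 16.7% of all genes) and 3 in both. It held no HA-alone member, which in a list of this size is near the 1.34% of all genes. Among genes with a caSmad3 peak, caSmad3 cells alone held 9 of 12, against 3354 of 6878 of all genes. With the shortened caSmad3 list, 5 Hippo genes were in caSmad3 cells alone. AXL, a receptor kinase, is a YAP/TAZ target, and AJUBA and LATS1 are pathway regulators. AJUBA had peaks of 601 and 108 bases, AXL of 382, 161 and 156, and LATS1 one of 340. WWTR1, the gene of TAZ, was in both, with 290 bases at the widest in HA and 617 in caSmad3 cells. CCN2, another YAP/TAZ target, was counted with the Smad targets, and GADD45B stands in both lists.

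Several stress, early-response and housekeeping lists held no member in HA cells alone, where 1.34% of all genes stood, so counts of 0 in lists of this size are near the background. AP-1 and immediate early genes had 0 members in HA cells alone, 21 of 40 in both and 9 in caSmad3 cells alone. JUN had 7 peaks in HA and 8 in caSmad3 cells, and MYC had 1 of 386 bases and 2 of up to 551. JUND (203 bases) and FOSL2 (208) were in caSmad3 cells alone. Unfolded protein response genes stood at 0, 15 and 8 of 28, with DDIT4 at 454 bases in HA and 690 in caSmad3 cells, and chaperones at 0, 21 and 6 of 29, with HSPA8 at 471 and 539. Cytosolic ribosomal protein genes were at 0, 75 and 9 of 88, and splicing factors at 0, 35 and 8 of 48. Histone genes, at 0, 71 and 3 of 92, held the widest shared peaks at gene ends (H2AC18, 2545 and 3449 bases, and H1-4, 2349 and 2348). With the shortened caSmad3 list, AP-1 genes had 3 members in HA cells alone and 1 in caSmad3 cells alone, and chaperones had 5 and 4.

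Beside the Hippo list, those with the largest caSmad3-alone shares were of mitochondria, protein turnover and replication. Proteasome subunits other than the immunoproteasome had 16 of 41 members in caSmad3 cells alone (39.0%), against 16.7% of all genes. Cytosolic tRNA synthetases had 7 of 20 (35%), complex I genes 15 of 45 (33.3%), replication and repair genes 15 of 46 (32.6%) and mitochondrial ribosomal proteins 24 of 77 (31.2%). These lists were also touched more often in both cells, with 41.5% to 50% of members, against 17.6% of all genes. Among genes with a caSmad3 peak, caSmad3 cells alone held 16 of 33 proteasome, 7 of 17 synthetase and 15 of 36 complex I genes. The other counts were 15 of 35 replication and repair and 24 of 62 mitochondrial ribosomal genes, against 3354 of 6878 of all genes. No such share was above that of all genes. BRCA2 (346 bases) and RPA2 (346) were among the repair genes. Zinc-finger genes named ZNF were the list with the most HA-alone members outside the interferon and NF-kB lists, 13 of 509 (2.55%), with 149 in caSmad3 cells alone (29.3%). Lists of genes silent in most tissues had few or no peaks. Olfactory receptors had 0 of 390 in either list, which allows a share of up to 0.769%, and leukocyte markers 0 of 18, which allows up to 16.7%. Keratins had 1 of 144 in caSmad3 cells and 0 in HA cells, and protocadherins 2 of 66 in HA and 4 in caSmad3 cells. Epithelial and luminal markers had 2 of 25, GATA3 and XBP1, in caSmad3 cells alone.

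**Figure D5:**
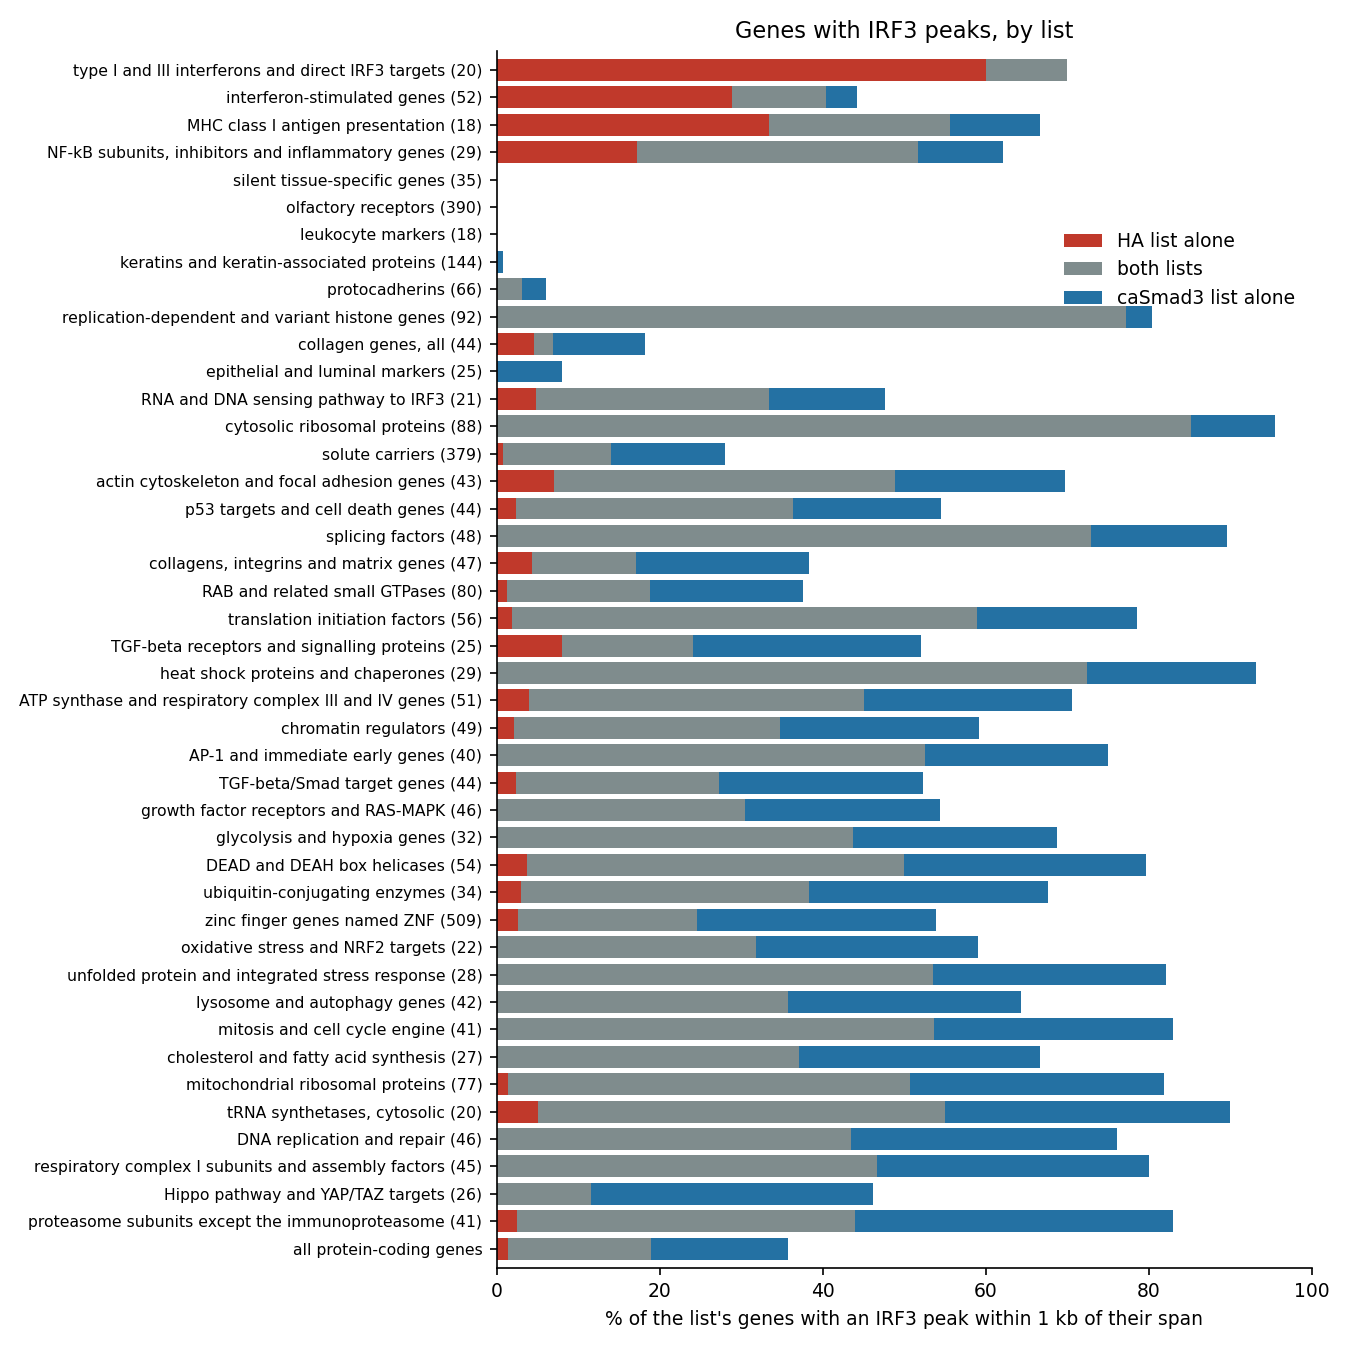
Share of each gene list's members with an IRF3 peak within 1 kb of their span in HA cells alone, in both and in caSmad3 cells alone; the number of genes is in brackets and the bottom bar is all protein-coding genes. Lists with at least 15 genes are ordered by the HA-alone minus the caSmad3-alone share, and 4 lists stand at the top with more HA-alone members.

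Smad3 peaks were used as a readout that had not entered the IRF3 comparison. Of shared IRF3 peaks 35.1% (33.4 to 36.7) overlapped a Smad3 peak of caSmad3 cells, against 13.1% of caSmad3-only (12.1 to 14.1) and 9.72% of HA-only peaks (7.64 to 12.1). Among peaks of 300 bases or more the shares were 63.0%, 21.3% and 7.35%. Among narrow ones the unshared classes had near-equal shares, 8.44% of caSmad3-only and 8.70% of HA-only peaks in the narrowest class, and 11.8% and 12% in the next. The HA-only share was between 7.35% and 12% in all 4 width classes. Far from protein-coding genes the shares were 55.2% of shared, 15.2% of caSmad3-only and 14.8% of HA-only peaks. Many of these far peaks lay in or within 10 kb of other kinds of gene. With all genes of the table, 1.17% of shared, 3.40% of caSmad3-only and 11.7% of HA-only peaks stayed far. The widest shared far peaks, on chromosome 21 between 8209597 and 8438775, overlapped all 3 Smad3 lists. Ribosomal RNA genes were touched by 32 shared HA peaks (0.937%), 9 caSmad3-only (0.189%) and 0 of 710 HA-only peaks (up to 0.518%). With the Smad3 list of HA cells that had received both polyI:C and TGF-beta, the shares were 6.35%, 0.734% and 1.97%, and after mock transfection 3.51%, 0.294% and 0.704%. Neither unshared class reached the shared one with any Smad3 list.

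Peaks at small nuclear RNA genes, whose products build the spliceosome, were almost all shared. In the HA list 44 of 3415 shared peaks touched such a gene (1.29%, 0.938 to 1.73). They were touched by 1 of 710 HA-only (0.141%, 0.00357 to 0.782) and 1 of 4770 caSmad3-only peaks (0.0210%). These genes were 0.258% of all genes of the table. Of all peaks, 82.8% of the HA list and 40.9% of the caSmad3 list were shared. Long non-coding genes were touched by 13.4% of HA-only, 17.3% of shared and 17.5% of caSmad3-only peaks. By chromosome, leaving out Y with its 1 HA peak, the HA-only part of the HA list ran from 8.22% on chromosome 21 (3.08 to 17.0) to 34.5% on chromosome 13 (22.2 to 48.6). On chromosome 10, where the IFIT genes lie, it was 25.6% (51 peaks). The annotated span of LIPA, which covers IFIT1, IFIT2 and IFIT3, held 23 of these 51 with 1 kb on each side.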

How the data were processed

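The authors deposited 1 peak list per library, and the values are start and end positions in bases, with no count, score or p-value. Bowtie2, MACS2 2.1.0 and genome build hg38 are named per the submitters' processing notes. What threshold, input control and handling of duplicates went into peak calling is not given in the sources used here. Depth is unknown, so neither list length nor a missing peak measures binding. Libraries were amplified by 15 PCR cycles, per the labels' protocols, and PCR reads are not independent molecules.

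Overlaps were computed in Python 3.11.15 (numpy 2.4.6, pandas 2.3.3, scipy 1.17.1) with code tested on simulated peaks. RefSeq tables of GRCh38.p14 gave 20033 protein-coding genes, 15842 of them with a promoter, and 34796 promoter windows of distinct sequence. The 4191 protein-coding genes without a promoter there included all of chromosome 8, IFIT2 and CCL5. A promoter took the class of the peaks that touched it, if they were of 1 class. Beside a count of 0 stands the share made by 3 counts. No test was made, because each group holds 1 library.

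The members, 43 gene lists and 17 motifs were chosen with earlier results of these data known, and the proteasome list was later limited to exclude the immunoproteasome and 2 lists were renamed. Genes were named by a rule: the 10 widest peaks at gene ends, 8 deep and 5 far in each class, the 8 genes with most peaks of each unshared class, the largest width ratios, up to 4 widest members per list and call, and a set of known IRF3 and Smad3 targets. Genes with an ISRE core, genes filled by peaks and other genes with 3 or more HA-only peaks were named after their values were seen. A few genes that the rule names are not reported here. Alternatives changed the overlap rule, list length, gene windows, peak width and promoter choice.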

Additional observations from a re-analysis of the deposited data

How the results depend on the processing

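No paired analysis was possible because each group holds 1 library. The share of HA peaks in the caSmad3 list was 49.1% when 50% of both peaks had to overlap, 85.5% and 87.0% with gaps of 200 and 1000 bases, and 68.0% with the caSmad3 list shortened to its 4125 widest peaks; the share of caSmad3 peaks was 25.1%, 44.6%, 49.7% and 63.7%. With the shortened list, 855 genes were in HA cells alone, 1356 in caSmad3 cells alone, and 12 lists had more members in HA cells alone, against 4 with the whole list. The 8 lists that turned were AP-1 genes, p53 targets, actin and focal adhesion genes, the sensing pathway, chaperones, translation initiation factors, DEAD and DEAH box helicases and protocadherins. In the wider 50% of each list 1848 genes were in both.

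Gene-end shares for HA-only, shared and caSmad3-only peaks were 51.5%, 91.0% and 82.1% with all genes of the table, and 38.3%, 76.0% and 67.0% within 500 bases. Within 2 kb they were 83.8% for shared and 77.0% for caSmad3-only peaks. Deep shares beyond 20 kb were 13.0%, 2.43% and 4.19%. For shared and caSmad3-only peaks they were 5.30% and 8.24% beyond 5 kb, and 1.82% and 3.75% with all genes. Far shares with all genes were 11.7%, 1.17% and 3.40%. For shared and caSmad3-only peaks they were 8.14% and 11.2% beyond 5 kb, and 5.65% and 7.95% beyond 20 kb.

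Under peaks wider than the median of their list, 41.5% of HA-only promoters held an ISRE core and 7.55% an ETS motif, and 28.9% of caSmad3-only promoters an ETS motif. Alternatives chosen after seeing the data gave an ETS share of 10.6% of all promoters with 1 promoter per gene. With peaks of 200 bases or more, Smad3 overlap was 49.1% for shared and 18.2% for caSmad3-only peaks. Of counts per gene list, the shortened list moved 64 and kept 22 within 1.5 times, and a window of 10 kb moved 12 and kept 74. The cause of these shifts was not tested. Limits are the single library per group, the unknown depth and threshold, and the absence of peak heights, so a peak listed in 1 cell type may lie just under the threshold in the other.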
